A study of Mus musculus with 12 samples.

Results

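The genes described here encode the matrix metalloproteinases (MMPs), the membrane proteases of the ADAM family, the secreted ADAMTS proteases, the ADAMTS-like glycoproteins (ADAMTSL) and the tissue inhibitors of metalloproteinases (TIMPs), measured by RNA-seq in 3T3-L1 adipocytes. They were taken by symbol (Mmp, Timp, Adam, Adamts or Adamtsl followed by a digit) and kept when at least 10 counts were present in at least 3 of the 12 libraries. The rule kept 52 genes, 15 MMP, 4 TIMP, 15 ADAM, 14 ADAMTS and 4 ADAMTSL, of the 80 matching features in a table of 27473. 3T3-L1 is an established mouse fibroblast line that turns into fat-storing adipocytes after induction, here with 1 µM dexamethasone, 0.5 mM IBMX and 5 µg/ml insulin. All cells were differentiated in this way, transduced with lentivirus on day 8 and harvested 4 days after transduction. The 4 groups had 3 libraries each. Dnmt3a cells received the DNA methyltransferase Dnmt3a in the vector pCDH and are set against GFP cells, which received GFP in pCDH. shDnmt3a cells received a hairpin against Dnmt3a and are set against shScr cells, which received a scrambled hairpin. The sources used here name neither the hairpin nor separate cultures for the libraries of a group, so the error behind each p-value is that between the deposited libraries and may be technical.

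Metzincin proteases cut proteins with a zinc ion held in the active site. MMPs are made as inactive proenzymes and degrade collagens, gelatin and other matrix proteins, ADAMs release the outer parts of membrane proteins, and ADAMTS proteases cut proteoglycans and procollagens in the matrix. TIMPs bind the active site of these enzymes. ADAMTSL proteins resemble the ancillary part of ADAMTS proteases, have no protease domain and sit on fibrillin microfibrils. In adipose tissue, turnover of the pericellular collagen network by these enzymes accompanies the growth of fat cells, and the study asked which genes depend on the level of Dnmt3a in the adipocyte.

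Total counts were 29084732 to 47341091 per library, and the replicates of a group differed beyond counting noise (chi-square statistic over its degrees of freedom, 2.44 to 10.1). Dnmt3a itself averaged 2756 CPM (counts scaled to a common library size by TMM) in Dnmt3a cells and 93.3 CPM in GFP cells, and 39.8 CPM in shDnmt3a cells and 82.2 CPM in shScr cells. The 8 adipocyte markers summed to 14354 to 23234 CPM, so the labelled cell type was present in every library. Of 9 macrophage or leukocyte markers, whose sum was 19.1 to 31.8 CPM, Emr1 was at 0 in every library, which may come from the annotation or the counting. Others were present and differed between groups. Mpeg1 averaged 17.8 CPM in shScr, 5.70 in shDnmt3a, 3.31 in GFP and 2.79 in Dnmt3a cells. Cd53 averaged 2.96 CPM in shScr, 11.3 in shDnmt3a, 3.26 in GFP and 5.66 in Dnmt3a cells. The 4 endothelial markers summed to 1.07 to 2.07 CPM. Markers of preadipocytes or fibroblasts, 7 in number, summed to 1255 to 1687 CPM, and fewer cells of a type and less RNA per cell cannot be told apart in these bulk samples.

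The active site is the feature that the protease classes share and the inhibitors lack. A script searched the annotated proteins (GENCODE vM1) for the zinc-binding consensus of the metzincins, 11 residues with 3 histidines, allowing glycine or asparagine as residue 8. It was encoded by 37 of the 52 genes, all 15 MMP, 9 of 15 ADAM and 13 of 14 ADAMTS, and by no TIMP or ADAMTSL gene. Across the annotation, 75 of 22611 genes with a protein-coding transcript held a match. Asparagine was allowed after Adamts1 was seen to have none with glycine alone, and it was the residue in 4 ADAMTS genes (Adamts1, Adamts4, Adamts9 and Adamts15). The absence of a match, as in Adamts8, says only that the pattern is not there. The coding stretches (NCBIM37, 5′ to 3′, 33 bases) are shown for 10 of the proteases with results described here, chosen from the 3 protease classes to show both residues at that place, with the codons of the fixed residues in capitals.

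Mmp14: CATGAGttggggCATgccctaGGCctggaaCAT 
Mmp2: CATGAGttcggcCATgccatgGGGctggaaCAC 
Mmp3: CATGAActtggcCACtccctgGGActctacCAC 
Mmp11: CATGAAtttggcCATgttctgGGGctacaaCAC 
Mmp13: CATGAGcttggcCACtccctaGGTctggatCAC 
Adam10: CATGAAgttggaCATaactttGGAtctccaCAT 
Adam15: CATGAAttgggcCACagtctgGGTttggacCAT 
Adamts5: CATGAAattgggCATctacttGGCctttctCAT 
Adamts1: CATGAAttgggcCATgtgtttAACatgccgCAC 
Adamts15: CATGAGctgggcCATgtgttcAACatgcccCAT

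The fixed residues are the same in the first 8 stretches although their codons differ, and Adamts1 and Adamts15 carry the asparagine codon AAC in the place of glycine.

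Levels between genes were compared per length, as mean CPM per kilobase of feature. The highest was Mmp14, which encodes the membrane-anchored collagenase MT1-MMP that activates proMMP2, at 157 CPM per kb in Dnmt3a, 156 in GFP, 128 in shDnmt3a and 201 in shScr cells. Adamts1, a versican-cutting protease, followed at 96.7, 112, 99.4 and 105 CPM per kb in the same groups. Mmp2, the gelatinase A gene, had 55.9, 45.9, 79.3 and 113 CPM per kb. Mmp14 was thus the highest in every group, Mmp2 exceeded Adamts1 in shScr cells alone, and Mmp11, with 57.1 CPM per kb, exceeded Mmp2 in GFP cells. Mmp11, which encodes stromelysin-3, Adam9, Adam15 and Timp2 came next, with means over all libraries of 62.6, 43.6, 37.4 and 32.3 CPM per kb. Some features are much longer than the longest annotated transcript of the gene, as for Adam15 (6786 against 3914 bases) and Mmp19 (5929 against 3410). This order and the numbers of genes that follow thus depend on the length used. Of the 52 genes, 17 had at least 10 CPM per kb and 19 had less than 1. The count minimum was reached in all 12 libraries by 39 genes, and none reached it through libraries of a single group. Adam6a, however, reached it in the 3 Dnmt3a and 3 shDnmt3a libraries and in no GFP or shScr library. Within either comparison it thus passed through its higher group alone, as did Mmp9 on overexpression through the GFP libraries. Just inside the rule were Adam1b (2 to 16 counts) and Adamtsl3 (1 to 16 counts), and just outside were Adamts17 (3 to 11 counts) and Mmp15 (0 to 15 counts).

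**Figure D1:**
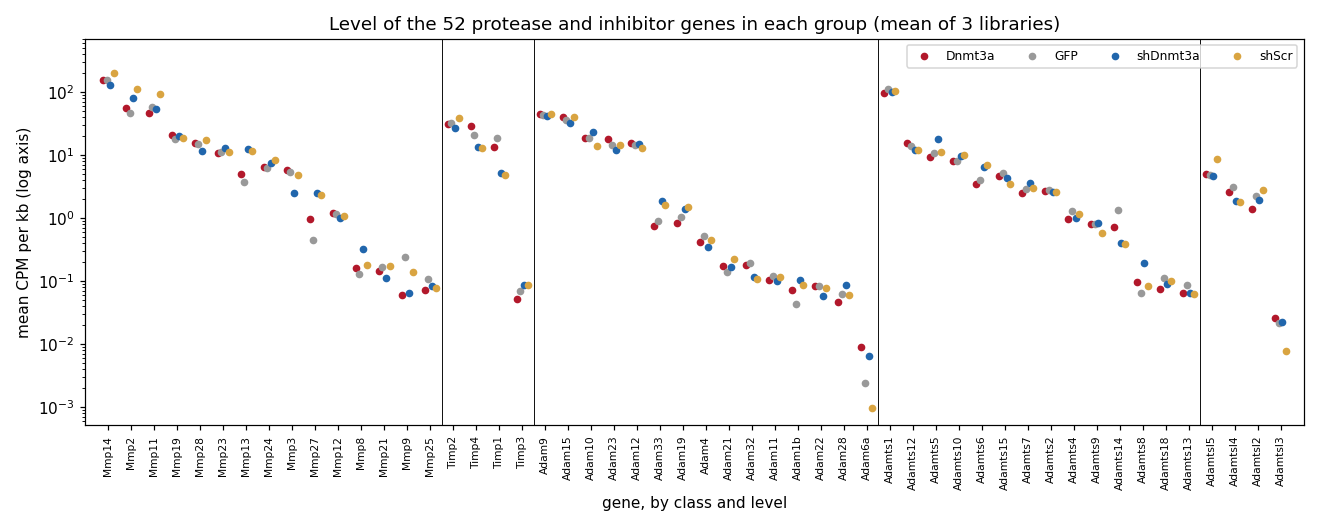
Mean CPM per kb (log axis) of the 52 genes in Dnmt3a, GFP, shDnmt3a and shScr cells, ordered by class (MMP, TIMP, ADAM, ADAMTS and ADAMTSL from left to right) and level, each point the mean of 3 libraries. Mmp14 and Adamts1 lie near or above 100 CPM per kb in each group, and Adam6a and Adamtsl3 lie lowest.

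A gene was called when its p in the quasi-likelihood test of edgeR, adjusted by Benjamini and Hochberg's method over all features tested, was under 0.05. On overexpression (Dnmt3a against GFP), 22 of the 49 genes tested were called, 10 higher and 12 lower, which is 44.9%, beside 27.2% of all 14168 features (14.3% higher and 12.9% lower). On knock-down (shDnmt3a against shScr), 21 of 50 were called, 9 higher and 12 lower, which is 42%, beside 45.8% of all 14115 features (23.3% higher and 22.5% lower). The share of called genes was thus above the background on overexpression and near it on knock-down. The median log2 fold change of the genes was -0.05 on overexpression and -0.01 on knock-down, beside -0.01 and -0.00027 over all features. The low-count genes Adam1b, Adamtsl3 and Timp3 were not tested on overexpression, nor were Adam6a and Adamtsl3 on knock-down.

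Mmp14, Mmp2 and Timp2 were lower on knock-down. Their proteins meet at the cell surface, where MMP14 holds TIMP2 and TIMP2 in turn holds proMMP2. The 3 genes were set together for this known role after their values were seen, and the wider list of the MMP and TIMP network was balanced on knock-down, with 4 genes higher and 4 lower of 16 tested. Mmp14 was at 344, 337 and 319 CPM in shDnmt3a cells, against 509, 532 and 526 CPM in shScr cells. The groups did not overlap, and the log2 fold change was -0.64 (SE 0.036, adjusted p = 2.29e-11). Mmp2 was at 244, 239 and 240 CPM in shDnmt3a cells, against 329, 352 and 349 CPM in shScr cells. All shDnmt3a values were below all shScr values, with a log2 fold change of -0.50 (SE 0.035, adjusted p = 7.21e-10). Timp2 was at 102, 96.1 and 97.8 CPM in shDnmt3a cells, against 134, 141 and 144 CPM in shScr cells. It fell by 0.49 on the log2 scale (SE 0.039, adjusted p = 3.36e-09), again without overlap. Reck, a membrane glycoprotein that inhibits these MMPs, was lower (log2 fold change -0.30), and Furin, the convertase that activates proMMP14, was higher (0.49). The preadipocyte or fibroblast markers moved in the same direction. Of these, 5 of 7 were lower and none higher on knock-down, beside 22.5% lower and 23.3% higher of all features. Their sums were 1255 to 1260 CPM in shDnmt3a cells against 1433 to 1518 CPM in shScr cells. Their part in the result was not tested.

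Other MMPs fell on knock-down as well. Mmp11 was at 124, 122 and 116 CPM in shDnmt3a cells, against 208, 214 and 205 CPM in shScr cells. This separation gave a log2 fold change of -0.79 (SE 0.037, adjusted p = 2.16e-12). Mmp3, the stromelysin-1 gene, was at 4.66, 4.64 and 4.40 CPM in shDnmt3a cells, against 9.30, 7.51 and 9.33 CPM in shScr cells. The groups did not overlap although shScr replicate 2 was lower than its fellows, and the log2 fold change was -0.92 (SE 0.10, adjusted p = 5.63e-07). Mmp28, which encodes epilysin, changed by -0.58 (SE 0.049, adjusted p = 1.03e-08). The gelatinase B gene Mmp9 was scarce, with 7, 10 and 6 counts in shDnmt3a and 14, 17 and 14 in shScr libraries. It fell by 1.08 on the log2 scale (SE 0.36, adjusted p = 0.0194), a call that was lost with DESeq2 (adjusted p = 0.0974) and without shScr replicate 2 (0.0523), shDnmt3a replicate 1 (0.0553) or shDnmt3a replicate 3 (0.0707). In the other direction, Mmp23 rose by a log2 fold change of 0.22 (SE 0.064, adjusted p = 0.00721). Mmp8, the collagenase-2 gene, had 23, 28 and 37 counts in shDnmt3a and 17, 14 and 15 counts in shScr libraries. Its call (log2 fold change 0.81, SE 0.29, adjusted p = 0.0299) was lost with DESeq2 (0.0945) and without shScr replicate 2 (0.116), shScr replicate 3 (0.0530) or shDnmt3a replicate 3 (0.179). In all, 6 of 15 MMPs were lower, 2 were higher and 7 were not called. The 53.3% called stand beside 45.8% of all features, 23.3% higher and 22.5% lower. Summed over the class, MMP transcripts took 969, 963 and 935 CPM in shDnmt3a cells against 1323, 1370 and 1349 CPM in shScr cells, a sum to which Mmp14, Mmp2 and Mmp11 gave most. The same sum was 955, 924 and 926 CPM in Dnmt3a cells and 924, 882 and 902 CPM in GFP cells, so shScr cells stood apart from the other groups.

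**Figure D2:**
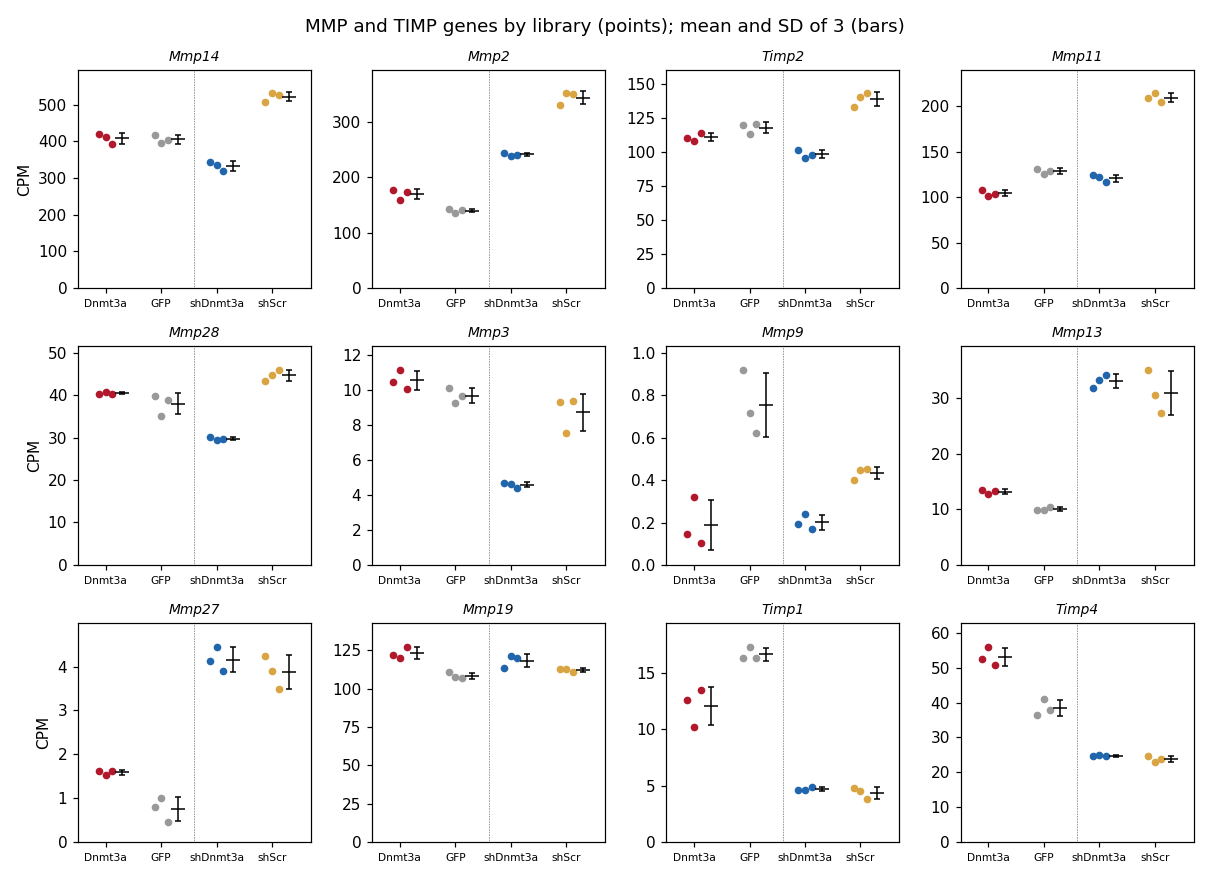
CPM of 12 MMP and TIMP genes in each library (points, Dnmt3a, GFP, shDnmt3a and shScr from left to right in each panel), with the mean and SD of the 3 libraries beside them. Mmp14, Mmp2, Timp2, Mmp11 and Mmp28 lie lower in every shDnmt3a library than in every shScr library, and Timp1 and Timp4 differ more between the GFP and shScr controls than within either comparison.

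Among the other inhibitors, none was called on knock-down. Timp1, which encodes a secreted inhibitor of many MMPs, was at 4.61, 4.62 and 4.85 CPM in shDnmt3a cells, against 4.82, 4.48 and 3.77 CPM in shScr cells. Timp4, the inhibitor typical of adipocytes, was at 24.5, 24.9 and 24.6 CPM in shDnmt3a cells, against 24.6, 22.9 and 23.8 CPM in shScr cells. For both the groups overlapped, and the log2 fold changes were 0.11 (SE 0.12) and 0.06 (SE 0.056). Timp3 had 11, 15 and 9 counts in shDnmt3a libraries, against 13, 15 and 4 counts in shScr libraries, and a difference was not detectable at this depth.

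Of the ADAM genes, Adam10 stood apart on knock-down. It encodes the main alpha-secretase, which cuts Notch receptors and many other surface proteins, and it was at 109, 105 and 106 CPM in shDnmt3a cells, against 64.1, 65.9 and 60.1 CPM in shScr cells. The groups did not overlap and the log2 fold change was 0.76 (SE 0.042, adjusted p = 2e-11). Adam12, a protease of mesenchymal and preadipocyte cells, was at 116, 114 and 122 CPM in shDnmt3a cells, against 95.9, 102 and 97.5 CPM in shScr cells. Every shDnmt3a value was higher (log2 fold change 0.26, SE 0.040, adjusted p = 2.73e-05). Adam15, a protease with an integrin-binding domain, was at 217, 217 and 213 CPM in shDnmt3a cells, against 268, 277 and 287 CPM in shScr cells. Adam23, an adhesion protein whose metalloprotease domain has no zinc motif, was at 130, 129 and 123 CPM in shDnmt3a cells, against 152, 152 and 154 CPM in shScr cells. Both were lower in every shDnmt3a library, with log2 fold changes of -0.36 (SE 0.036, adjusted p = 1.02e-07) and -0.25 (SE 0.036, adjusted p = 8.51e-06). Adam9 was at 162, 170 and 168 CPM in shDnmt3a cells, against 184, 182 and 180 CPM in shScr cells. Its log2 fold change of -0.12 (SE 0.035, adjusted p = 0.00869) was not called without shDnmt3a replicate 1 (-0.10, adjusted p = 0.0548). The remaining 9 of the 14 ADAM genes tested were not called. The 35.7% called were below the 45.8% of all features.

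Each ADAMTS gene called on knock-down was higher, 5 of 14, and none was lower. This is 35.7% of the class, beside 23.3% of all features called higher and 45.8% called in either direction. Adamts5, which encodes the aggrecanase-2, was at 149, 149 and 145 CPM in shDnmt3a cells, against 89.3, 91.1 and 88.1 CPM in shScr cells. The values of the groups were far apart beside their spread (log2 fold change 0.73, SE 0.036, adjusted p = 2.86e-12). Adamts9, a versican-cutting protease, was at 9.82, 10.95 and 9.92 CPM in shDnmt3a cells, against 7.61, 6.98 and 6.99 CPM in shScr cells. Adamts15, another proteoglycanase, was at 26.1, 26.0 and 25.7 CPM in shDnmt3a cells, against 21.5, 21.5 and 19.8 CPM in shScr cells. Neither pair of groups overlapped, and the log2 fold changes were 0.52 (SE 0.086, adjusted p = 5.88e-05) and 0.32 (SE 0.058, adjusted p = 0.000179). The scarce Adamts8 had 46, 45 and 55 counts in shDnmt3a libraries, against 18, 23 and 18 counts in shScr libraries (log2 fold change 1.19, SE 0.24, adjusted p = 0.000443). Adamts7, a protease that cuts cartilage oligomeric matrix protein, was at 23.4, 17.4 and 18.0 CPM in shDnmt3a cells, against 16.5, 17.0 and 16.0 CPM in shScr cells. Its call (log2 fold change 0.25, SE 0.090, adjusted p = 0.0292) rested on shDnmt3a replicate 1, without which the fold change was 0.10 (adjusted p = 0.282), and was also lost without shScr replicate 3 (0.23, adjusted p = 0.105). Adamts1, the most abundant of the class, was at 484, 486 and 487 CPM in shDnmt3a cells, against 523, 501 and 519 CPM in shScr cells, and was not called (log2 fold change -0.08, SE 0.032, adjusted p = 0.0609). Adamts12 was not called either, at 104, 98.8 and 106 CPM in shDnmt3a cells against 107, 104 and 97.9 CPM in shScr cells. Nor was Adamts14, at 2.53, 2.02 and 1.83 CPM in shDnmt3a cells against 1.66, 2.40 and 2.05 CPM in shScr cells.

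The ADAMTS-like genes fell on knock-down in 2 of 3 tested. This is 66.7% of only 3 genes, beside 22.5% of all features called lower. Adamtsl5, a fibrillin-binding protein, was at 13.96, 12.9 and 14.1 CPM in shDnmt3a cells, against 22.7, 25.7 and 27.0 CPM in shScr cells. Adamtsl2, which binds fibrillin-1 and the latent TGF-beta binding protein 1, was at 7.02, 6.71 and 5.83 CPM in shDnmt3a cells, against 9.84, 8.32 and 9.36 CPM in shScr cells. No shDnmt3a value reached a shScr value in either gene, and the log2 fold changes were -0.87 (SE 0.072, adjusted p = 7.27e-09) and -0.48 (SE 0.097, adjusted p = 0.0004).

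**Figure D3:**
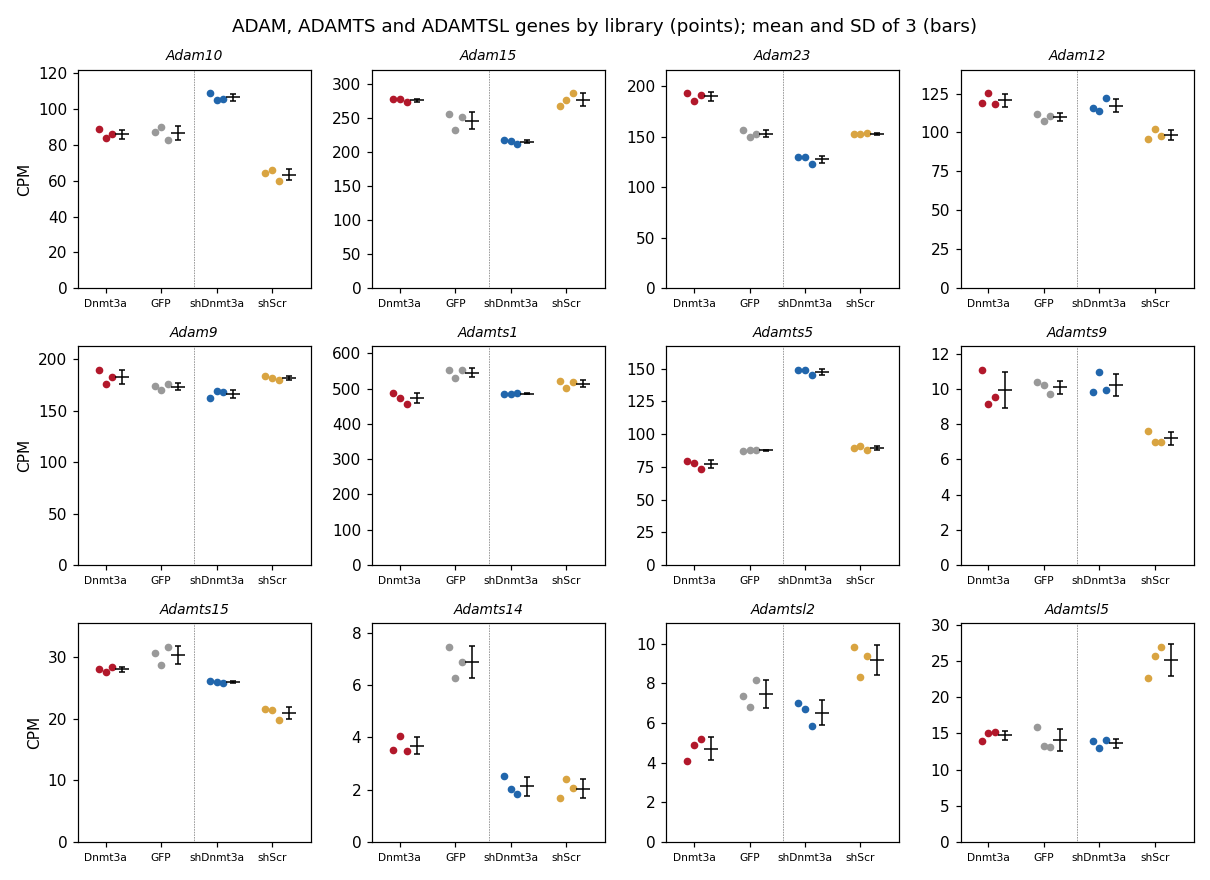
CPM of 12 ADAM, ADAMTS and ADAMTSL genes in each library (points, Dnmt3a, GFP, shDnmt3a and shScr from left to right in each panel), with the mean and SD of the 3 libraries beside them. Adam10 and Adamts5 lie higher in every shDnmt3a library than in every shScr library, with 105 to 109 against 60.1 to 65.9 CPM for Adam10.

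Overexpression moved the inhibitors in opposite directions. Timp4 was at 52.6, 56.1 and 50.8 CPM in Dnmt3a cells, against 36.6, 40.9 and 37.9 CPM in GFP cells. The groups did not overlap (log2 fold change 0.46, SE 0.052, adjusted p = 1.05e-08). All 8 adipocyte markers were called higher in the same libraries, beside 14.3% of all features. Their sums were 22537 to 23234 CPM in Dnmt3a cells against 18079 to 19015 CPM in GFP cells. The part of these markers in the result was not tested. Timp1 was at 12.6, 10.2 and 13.4 CPM in Dnmt3a cells, against 16.3, 17.3 and 16.3 CPM in GFP cells, and fell by 0.45 on the log2 scale (SE 0.080, adjusted p = 3.37e-05). Timp2 was at 111, 108 and 114 CPM in Dnmt3a cells, against 120, 114 and 121 CPM in GFP cells, and was not called (adjusted p = 0.0951). Timp3 had 7, 5 and 7 counts in Dnmt3a libraries and 12, 14 and 5 counts in GFP libraries, too few for the test. Except for Timp2, each TIMP gene lies inside a synapsin gene on the opposite strand in NCBIM37, with Timp1 (chrX:20447292-20451861) inside Syn1, Timp3 (chr10:85763117-85812251) inside Syn3 and Timp4 (chr6:115195634-115201867) inside Syn2. Since the sources used here do not say whether reads were counted by strand, those of the overlapping genes may not be told apart. The features of Syn2 and Syn3 had 2353 to 5124 and 74 to 217 counts, and no counted feature carried the symbol Syn1.

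Among the 15 MMPs, 4 were higher and 2 lower on overexpression. This is 40%, beside 27.2% of all features called. Mmp2 was at 176, 160 and 174 CPM in Dnmt3a cells, against 142, 136 and 141 CPM in GFP cells. Every Dnmt3a value was higher, with a log2 fold change of 0.28 (SE 0.042, adjusted p = 2.24e-06). Its activator Mmp14 was at 420, 413 and 392 CPM in Dnmt3a cells, against 419, 395 and 405 CPM in GFP cells, with overlapping groups and a log2 fold change of 0.01 (SE 0.038). Mmp13, the collagenase-3 gene, was at 13.5, 12.8 and 13.3 CPM in Dnmt3a cells, against 9.91, 9.91 and 10.4 CPM in GFP cells. Mmp27 was at 1.61, 1.53 and 1.63 CPM in Dnmt3a cells, against 0.794, 0.989 and 0.454 CPM in GFP cells. Both were higher without overlap, by log2 fold changes of 0.39 (SE 0.077, adjusted p = 0.000153) and 1.07 (SE 0.24, adjusted p = 0.00067). Mmp19 rose by 0.18 (SE 0.040, adjusted p = 0.000548). Mmp9 had 5, 9 and 4 counts in Dnmt3a libraries, against 44, 29 and 22 counts in GFP libraries, a log2 fold change of -2.09 (SE 0.38, adjusted p = 4.86e-05). Mmp11 was at 108, 102 and 103 CPM in Dnmt3a cells, against 131, 125 and 129 CPM in GFP cells, and fell by 0.30 on the log2 scale (SE 0.040, adjusted p = 3.91e-07). No Dnmt3a value of either gene reached a GFP value. Mmp3, at 10.4, 11.1 and 10.02 CPM in Dnmt3a cells against 10.1, 9.24 and 9.62 CPM in GFP cells, was not called. Mmp8, with 9, 12 and 20 counts in Dnmt3a libraries against 16, 8 and 15 counts in GFP libraries, was not called either.

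In the ADAMTS class, 6 of 14 genes were lower on overexpression and Adamts12 alone was higher. The 50% called stand beside 27.2% of all features, of which 12.9% were lower and 14.3% higher. Adamts14, which encodes a procollagen N-proteinase, was at 3.51, 4.05 and 3.48 CPM in Dnmt3a cells, against 7.46, 6.25 and 6.90 CPM in GFP cells. The Dnmt3a values were all below the GFP values (log2 fold change -0.91, SE 0.11, adjusted p = 7.93e-08). Adamts1 was at 486, 473 and 457 CPM in Dnmt3a cells, against 553, 529 and 552 CPM in GFP cells. Adamts5 was at 79.4, 77.7 and 73.6 CPM in Dnmt3a cells, against 87.1, 87.5 and 87.9 CPM in GFP cells. These separations were small, with log2 fold changes of -0.21 (SE 0.037, adjusted p = 4.53e-05) and -0.19 (SE 0.041, adjusted p = 0.000542). The aggrecanase-1 gene Adamts4 fell by 0.41 on the log2 scale (SE 0.12, adjusted p = 0.00651). Adamts7 was at 14.1, 13.7 and 13.9 CPM in Dnmt3a cells, against 16.7, 16.5 and 15.0 CPM in GFP cells (log2 fold change -0.22, SE 0.071, adjusted p = 0.0199). This call was lost without GFP replicate 1 (adjusted p = 0.0850), GFP replicate 2 (0.0552), Dnmt3a replicate 2 (0.0605) or Dnmt3a replicate 3 (0.0582). That of Adamts6 (-0.21, SE 0.068, adjusted p = 0.017) was lost without GFP replicate 2 (0.0565), Dnmt3a replicate 1 (0.0553) or Dnmt3a replicate 3 (0.152). Adamts12 was at 130, 134 and 129 CPM in Dnmt3a cells, against 125, 117 and 119 CPM in GFP cells. Its call (log2 fold change 0.12, SE 0.040, adjusted p = 0.0223) was lost without GFP replicate 2 (0.0649), GFP replicate 3 (0.0996), Dnmt3a replicate 1 (0.0531) or Dnmt3a replicate 2 (0.0988). Adamts8 had 18, 21 and 27 counts in Dnmt3a libraries, against 19, 27 and 9 counts in GFP libraries, and was not called.

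Among ADAM genes, Adam23 was at 193, 185 and 191 CPM in Dnmt3a cells, against 156, 149 and 153 CPM in GFP cells. Adam15 was at 278, 278 and 274 CPM in Dnmt3a cells, against 255, 232 and 252 CPM in GFP cells. Both were higher in every Dnmt3a library, by log2 fold changes of 0.31 (SE 0.039, adjusted p = 1.3e-07) and 0.16 (SE 0.040, adjusted p = 0.00196). Adam12 was at 119, 125 and 118 CPM in Dnmt3a cells, against 112, 107 and 111 CPM in GFP cells (log2 fold change 0.13, SE 0.040, adjusted p = 0.0122), a call lost without Dnmt3a replicate 2 (adjusted p = 0.0876). Adam19, a protease that sheds neuregulin, fell by 0.33 on the log2 scale (SE 0.11, adjusted p = 0.0206), a call that did not hold without GFP replicate 1 (adjusted p = 0.0638), GFP replicate 3 (0.129), Dnmt3a replicate 1 (0.0798) or Dnmt3a replicate 3 (0.0896). Adam9 was at 190, 176 and 183 CPM in Dnmt3a cells, against 174, 170 and 176 CPM in GFP cells, and Adam10 at 88.6, 83.6 and 85.9 CPM in Dnmt3a cells, against 87.5, 90.05 and 82.5 CPM in GFP cells. Neither was called. Adam6a had 12, 14 and 18 counts in Dnmt3a libraries, against 3, 1 and 9 counts in GFP libraries, a log2 fold change of 1.99 (SE 0.49, adjusted p = 0.00202) that was 3.16 without GFP replicate 3. The gene reached the count minimum in no GFP library, so this difference is tied to how it passed the rule. Its feature is 48168 bases long, whereas the longest annotated transcript of the gene has 2507, so these reads may come from elsewhere in that interval. Of the ADAMTS-like genes, Adamtsl2 was at 4.06, 4.87 and 5.19 CPM in Dnmt3a cells, against 7.38, 6.80 and 8.18 CPM in GFP cells. It fell by 0.66 on the log2 scale (SE 0.11, adjusted p = 1.25e-05), and Adamtsl4, a fibrillin-1-binding protein, fell by 0.31 (SE 0.080, adjusted p = 0.00307). Adamtsl5 was at 13.95, 15.0 and 15.2 CPM in Dnmt3a cells, against 15.9, 13.3 and 13.1 CPM in GFP cells, and was not called.

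Overexpression and knock-down share no library. Of the 48 genes tested in both, 9 were called in both, 5 in opposite directions (10.4%, beside 9.66% of the 13893 features tested in both) and 4 in the same direction (8.33%, beside 6.74%). Both shares were close to the background. Mmp2, Adam15 and Adam23 were higher with Dnmt3a and lower with the hairpin, as were 6.03% of all features. Adamts5 and Adamts7 were lower with Dnmt3a and higher with the hairpin, as were 3.63%. Mmp9, Mmp11 and Adamtsl2 were lower in both (3.1% of all features), and Adam12 was higher in both (3.64%). Another 15 genes were called in neither comparison. For Mmp9, Adamts7 and Adam12 the limits given above on single libraries hold here too.

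The control groups differed from each other as well. The comparison of shScr with GFP cells shares its libraries with both others, and the vector, the insert and any difference in handling cannot be told apart in it. Of the 51 genes tested, 27 were called, 15 higher and 12 lower, which is 52.9%, beside 46.5% of all 14491 features (23.7% higher and 22.8% lower). The median absolute log2 fold change was 0.35, beside 0.24 on overexpression and 0.24 on knock-down. Mmp2 averaged 343 ± 12.1 CPM in shScr cells and 140 ± 3.302 CPM in GFP cells (SD, n = 3 each), with a log2 fold change of 1.30 (SE 0.040, adjusted p = 4.13e-21 in edgeR). Mmp13, at 35.1, 30.6 and 27.3 CPM in shScr cells, was higher by 1.62 (SE 0.074, adjusted p = 4.5e-17), and Mmp27, at 4.25, 3.90 and 3.48 CPM in shScr cells, by 2.35 (SE 0.18, adjusted p = 5.16e-12). Timp1 fell by 1.93 on the log2 scale (SE 0.098, adjusted p = 6.08e-16) and Adamts14, at 1.66, 2.40 and 2.05 CPM in shScr cells, by 1.75 (SE 0.14, adjusted p = 8.38e-12). The groups did not overlap in any of these genes. Mmp11 (0.71), Adamtsl5 (0.82), Adam33 (0.83), Adamts6 (0.76), Adam19 (0.51), Mmp24 (0.41), Mmp14 (0.36), Adamts10 (0.34), Timp2 (0.24), Mmp28 (0.23) and Adam15 (0.17) were also higher on the log2 scale in shScr cells. Lower in shScr cells were Adamtsl4 (-0.82), Timp4 (-0.69), Adamts15 (-0.53), Adamts9 (-0.49), Adam10 (-0.45), Adamts12 (-0.23) and Adam12 (-0.16). The values of Adam10 in shDnmt3a cells, 105 to 109 CPM, exceeded those of all other groups, of which Dnmt3a cells had 83.6 to 88.6, GFP cells 82.5 to 90.05 and shScr cells 60.1 to 65.9 CPM. Likewise Mmp14 was lowest in shDnmt3a cells, at 319 to 344 CPM, with 392 to 420 CPM in Dnmt3a cells, 395 to 419 CPM in GFP cells and 509 to 532 CPM in shScr cells. Mmp2 did not follow this order. Its 239 to 244 CPM in shDnmt3a cells lay above the 160 to 176 CPM of Dnmt3a cells and the 136 to 142 CPM of GFP cells, and were lower only than the 329 to 352 CPM of shScr cells. For Adamtsl5, Mmp11 and Adamts9, shScr cells stood apart and shDnmt3a cells lay near GFP cells. In shDnmt3a cells these averaged 13.7, 121 and 10.2 CPM, and in GFP cells 14.1, 128 and 10.1 CPM. The means were 14.7, 104 and 9.92 CPM in Dnmt3a cells and 25.1, 209 and 7.19 CPM in shScr cells.

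Weaker calls between the controls were those of Adamtsl2, Mmp9, Adam32 and Adamts1. Adamtsl2 (log2 fold change 0.30, adjusted p = 0.0131) was not called without GFP replicate 2 (0.0764) or shScr replicate 1 (0.0635). Mmp9 (-0.81, adjusted p = 0.0257) was not called with DESeq2 (0.0961) or without GFP replicate 1 (0.1496), shScr replicate 1 (0.0806), shScr replicate 2 (0.0581) or shScr replicate 3 (0.0525). Adam32 (-0.87, adjusted p = 0.0358), with 14, 10 and 8 counts in shScr and 26, 29 and 15 counts in GFP libraries, was not called with DESeq2 (0.0887) or without GFP replicate 1 (0.0612), GFP replicate 2 (0.164), shScr replicate 2 (0.124) or shScr replicate 3 (0.110). Adamts1 (-0.08, adjusted p = 0.0452) was not called in the 6 control libraries alone (0.0652), nor without GFP replicate 1 (0.135), GFP replicate 3 (0.136), shScr replicate 1 (0.0525), shScr replicate 2 (0.202) or shScr replicate 3 (0.0844). All p-values in this paragraph are from edgeR, adjusted by the Benjamini-Hochberg method, unless DESeq2 is named.

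**Figure D4:**
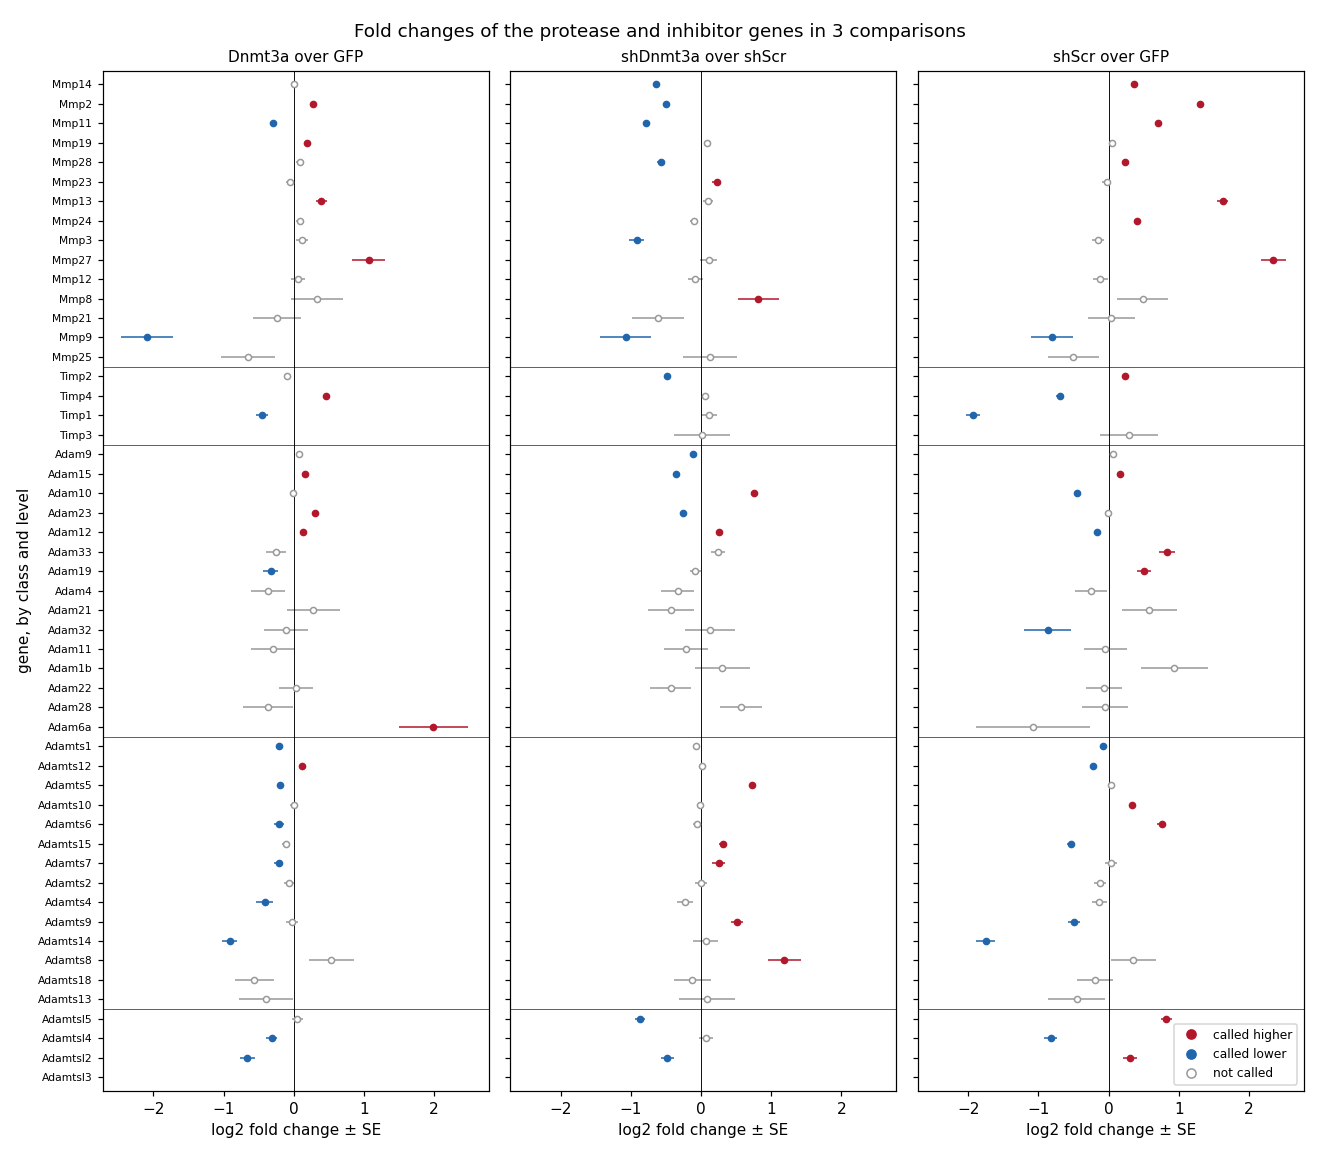
Log2 fold changes with their SE for the genes tested, by class and level, in Dnmt3a over GFP, shDnmt3a over shScr and shScr over GFP cells (3 libraries a group). Filled points were called higher (red) or lower (blue) and open points were not called. Mmp14, Mmp2, Mmp11 and Mmp28 lie left of 0 in shDnmt3a over shScr cells and right of 0 in shScr over GFP cells.

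Several of the genes are neighbours. Of the MMP genes, 5 lie in 1 cluster on chromosome 9 (NCBIM37) and on the same strand, from Mmp13 (chr9:7272514-7283333) through Mmp12, Mmp3 and Mmp8 to Mmp27 (chr9:7571396-7581885), whose start lies 299 kb from that of Mmp13. The genes between them and beyond that fell below the minimum, Mmp1a, Mmp10, Mmp20 and Mmp7, had at most 4 counts in a library. The pattern differed along the cluster. Mmp13 and Mmp27, the outermost of these 5 genes, were called higher on overexpression and in shScr against GFP cells. They were not called on knock-down, where their log2 fold changes were 0.10 (SE 0.070) and 0.11 (SE 0.12). Mmp27 was at 4.13, 4.45 and 3.89 CPM in shDnmt3a cells, against 4.25, 3.90 and 3.48 CPM in shScr cells, with overlapping groups. Mmp3 was called on knock-down alone (-0.92). Mmp12, the macrophage elastase gene, was called in no comparison, and its main feature of 7221 bases (238 to 395 counts) is longer than the longest annotated transcript of 3607 bases. A second Mmp12 feature had 0 to 5 counts.

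**Figure D5:**
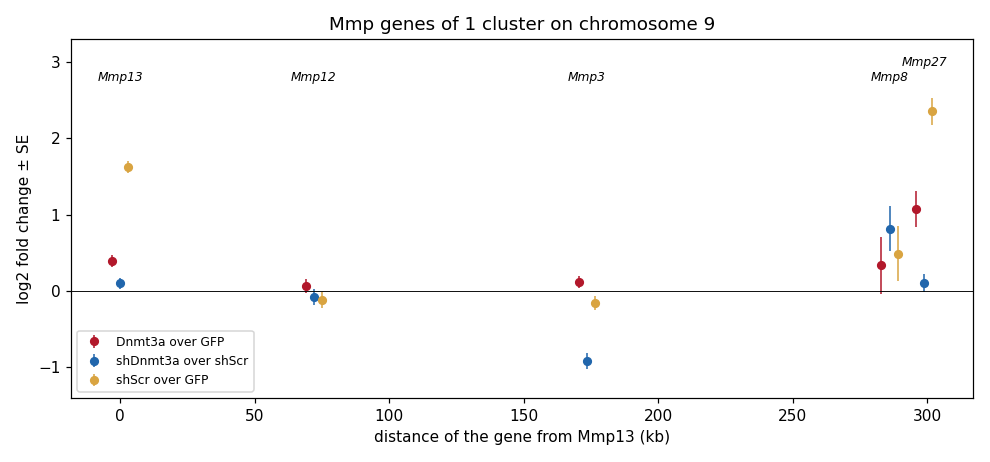
Log2 fold changes with their SE of the 5 MMP genes of the chromosome 9 cluster, against the distance of each gene's start from that of Mmp13 in kb, for Dnmt3a over GFP, shDnmt3a over shScr and shScr over GFP (points of 1 gene are set slightly apart). The outermost of these 5, Mmp13 and Mmp27, share a pattern, with 1.62 and 2.35 in shScr over GFP, that Mmp12 and Mmp3 between them do not show. Mmp8, next to Mmp27, lies above 0 in each comparison (0.34, 0.81 and 0.49) with wide SE.

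Among other neighbouring pairs, some shared a call and others did not. Adamts1 (chr16:85794072-85803358) and Adamts5 (chr16:85858415-85901370) lie 55.1 kb apart on the same strand, and on knock-down Adamts5 rose by 0.73 on the log2 scale whereas Adamts1 was not called. Adam9 and Adam32 lie 0.807 kb apart on chromosome 8, and Adam9 was called on knock-down whereas Adam32 was not (log2 fold change 0.13, SE 0.36). Adamts15 and Adamts8 lie 20.1 kb apart on chromosome 9 on opposite strands, and both were higher on knock-down, by 0.32 and 1.19. No test of these differences between neighbours was made.

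Promoter sequences are shown for genes of both patterns, the knock-down-lowered activation partners Mmp14 and Timp2 and the cluster genes Mmp13 and Mmp27. RefSeq windows (GRCm38.p6) of 250 bases before the start site were found for 35 of the 52 genes, in 39 windows. Since Dnmt3a methylates cytosine at CpG, CpG were counted, and their median was 13 in these windows and 6 in all 32851 windows. The 52 genes had to reach the count minimum, whereas the set of all windows was not restricted in this way. These medians therefore do not compare like with like. In the windows of Mmp14 (10 CpG, chr14:54431348-54431597, plus strand) and Timp2 (21 CpG, chr11:118355412-118355661, minus strand) the CpG are in capitals.

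Mmp14: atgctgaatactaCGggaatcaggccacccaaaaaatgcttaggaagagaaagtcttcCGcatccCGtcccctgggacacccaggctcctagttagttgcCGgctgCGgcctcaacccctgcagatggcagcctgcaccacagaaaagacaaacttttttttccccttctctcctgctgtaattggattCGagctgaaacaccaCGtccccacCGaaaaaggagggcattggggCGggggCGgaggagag 
Timp2: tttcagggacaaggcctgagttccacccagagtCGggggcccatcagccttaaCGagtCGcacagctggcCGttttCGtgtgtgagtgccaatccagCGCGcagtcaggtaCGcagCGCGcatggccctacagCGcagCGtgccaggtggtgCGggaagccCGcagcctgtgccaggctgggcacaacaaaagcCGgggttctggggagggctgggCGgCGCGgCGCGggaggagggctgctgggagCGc

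The windows of Mmp13 (chr9:7272264-7272513, plus strand) and Mmp27 (chr9:7571146-7571395, plus strand) held 1 and 2 CpG. The letters of the AP-1 motif, known from the collagenase promoters, were searched as TGAGTCA and TGACTCA, which are each other's reverse complement and so cover both strands. They occurred in 4 of the 39 windows (10.3%), those of Adam19, Mmp12, Mmp13 and Mmp3, and in 4.46% of all windows. Here too the set of all windows was not held to the count minimum. The match in Mmp13 is in capitals, and Mmp27 had none in this window.

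Mmp13: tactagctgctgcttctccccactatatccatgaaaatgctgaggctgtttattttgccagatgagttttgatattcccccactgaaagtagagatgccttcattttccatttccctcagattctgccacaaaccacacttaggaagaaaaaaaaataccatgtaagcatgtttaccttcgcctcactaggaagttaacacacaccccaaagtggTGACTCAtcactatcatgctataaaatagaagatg 
Mmp27: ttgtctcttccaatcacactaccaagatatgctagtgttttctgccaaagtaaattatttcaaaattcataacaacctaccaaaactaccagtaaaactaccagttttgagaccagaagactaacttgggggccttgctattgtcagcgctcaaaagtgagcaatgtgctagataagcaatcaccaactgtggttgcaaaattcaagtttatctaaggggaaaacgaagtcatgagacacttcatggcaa

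The window of Mmp3, which was lower on knock-down as were Mmp14 and Timp2, held 1 CpG, and these counts are a description only. A match is a description of letters, and methylation was not measured in these libraries.

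Genes that act with the proteases were examined in 4 lists, whose counts stand beside 23.3% higher and 22.5% lower of all features on knock-down, 14.3% higher and 12.9% lower on overexpression, and 23.7% higher and 22.8% lower in shScr against GFP cells. Of 16 tested genes of the MMP and TIMP network (activators, inhibitors and receptors), 4 were higher and 4 lower on knock-down, with a median log2 fold change of 0.0019, and 3 were higher and 8 lower on overexpression (median -0.12). Bsg, which encodes the MMP inducer basigin, was at 1779 to 1795 CPM in shDnmt3a cells, against 601 to 629 CPM in shScr cells (log2 fold change 1.55). Bsg was also called higher on overexpression (0.38), and it was lower in shScr than in GFP cells (-0.62). Furin, a convertase that activates proMMP14 and many ADAMs, rose by 0.49 on knock-down and fell by 0.24 on overexpression on the log2 scale. Plau (log2 fold change -0.62) and Plaur (-0.58), the urokinase and its receptor, and Cd44 (-0.77), a surface anchor of MMP9 and MMP14, were lower on overexpression. The controls differed by more in Plau (-0.74), Plaur (-1.68) and Cd44 (-0.86) in shScr against GFP cells, and none of these genes was called on knock-down.

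Among 17 tested matrix substrates of ADAMTS proteases and fibrillin microfibril genes, 9 were higher and 2 lower on knock-down (median 0.17), and 3 were higher and 7 lower on overexpression (median -0.08). Vcan, the versican gene, was at 155 to 160 CPM in shDnmt3a cells, against 81.6 to 85.6 CPM in shScr cells (log2 fold change 0.92), and at 125 to 126 CPM in Dnmt3a cells, against 182 to 190 CPM in GFP cells (-0.57). The controls differed by more, with a log2 fold change of -1.15 in shScr against GFP cells, and the shDnmt3a values stayed below those of GFP cells. Comp (1.16) and Col3a1 (0.61) were also higher on knock-down. Of 19 tested substrates shed by ADAMs, 8 were lower and none higher on overexpression (median -0.09), among them Ereg (-1.08), Csf1 (-0.91), Icam1 (-0.71) and Hbegf (-0.57). In shScr against GFP cells Ereg (-1.69) and Csf1 (-1.15) differed by more, and Icam1 (-0.53) and Hbegf (-0.52) by less. On knock-down 5 were higher and 3 lower (median -0.0078), with Sdc4 (1.34) and Hbegf (0.86) higher and Csf1 (-0.82) lower. App, the amyloid precursor and a substrate of ADAM10, is listed at 0 in every library, although most cells express it, so the 0 may come from the annotation or the counting and says nothing of its expression. Of 8 tested regulators of ADAM10 and ADAM17, 2 were higher and 2 lower on knock-down, where Tspan5, a tetraspanin partner of ADAM10, fell by 0.47 on the log2 scale, and 2 were higher and 1 lower on overexpression. Adam17 was not analysed here. Between the controls, 5 genes of the MMP and TIMP network, 4 of the ADAMTS substrates, 3 of the ADAM substrates and 2 of the regulators were higher in shScr cells, and 7, 8, 10 and 3 were lower.

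The genes with the zinc motif and those without it were called at similar shares, 43.2% of 37 and 38.5% of 13 tested on knock-down, and 44.4% of 36 and 46.2% of 13 tested on overexpression. The remaining low-level genes, such as Mmp21, Mmp25, Adam11, Adam21, Adam22, Adam28, Adamts13 and Adamts18, were not called in any comparison, and at their depth, at most 0.221 CPM per kb in any group, their SE were wide and small changes were not detectable.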

How the data were processed

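RNA-seq was analysed for 12 libraries. Per the labels and the study's methods, the authors depleted ribosomal RNA and prepared TruSeq libraries. Alignment was to mm9 by TopHat2 (2.0.14), followed by SAMtools (0.1.19) and Picard (2.2.4), and counting by featureCounts (1.4.6), whose annotation had been altered so that fewer transcripts overlapped. The deposited table holds raw counts for each feature, which the authors had not normalized. The sources used here name no strand setting for the counting. A symbol on several features (789 in all) was named by the feature with the highest mean count. The labels give 2 days of virus and the study's methods 24 hr.

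TMM scaling was applied before the quasi-likelihood test in edgeR (4.0.16, under R 4.3.3) after its default filter (minimum count 10), with Benjamini-Hochberg adjustment. Overexpression and knock-down were fitted on 6 libraries each, and shScr against GFP in 1 fit of all 12. Alternatives were RLE size factors, DESeq2 (1.42.0), other filters, other libraries in the fit, a replicate block, summed features, an adjusted p under 0.01 and leaving out each library. Values in every library are given for the TIMP genes, for genes called with a log2 fold change of 0.8 or more in size on overexpression or knock-down, for genes called in both and for the 3 with the highest mean CPM among MMP, ADAM and ADAMTS or ADAMTSL. Adamts9, Adamts15, Adam10, Adam32 and Mmp13 were added after their values were seen. On simulated counts with 200 changed genes, the test recovered 85.9% (overexpression, 14030 features) and 94.8% (knock-down, 13976 features) of changes of 1 on the log2 scale, with 5.45% and 7.22% false calls. For shScr against GFP (14330 features) these were 84.5% and 3.66%. The simulation changed far fewer genes than were called in the data, 27.2% to 46.5% of features. These rates therefore may not hold for the data themselves. Gene positions and coding sequences are from NCBIM37 and GENCODE vM1. The genes and lists were chosen with earlier results of these data known.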

Additional observations from a re-analysis of the deposited data

How the results depend on the processing

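The counts of called genes stayed within 1.5 times the main count in each alternative run. With an adjusted p under 0.01, 17 genes were called on overexpression, 18 on knock-down and 23 in shScr against GFP, in place of 22, 21 and 27. With DESeq2 they were 20, 20 and 25. Leaving out each library in turn gave 19 to 21, 20 to 24 and 24 to 27. No pairing by replicate number was visible. The deviations of same-numbered libraries correlated at -0.058 to 0.0099, and those of differently numbered libraries at -0.040 to 0.048. These correlations cannot show whether libraries shared a culture or batch, which the sources used here do not say. With the replicate number as a block, the counts were 22, 21 and 26, the call of Adamts1 in shScr against GFP being lost (adjusted p = 0.0611, edgeR), and over all features 3853 on overexpression, 6023 on knock-down and 6540 in shScr against GFP, in place of 3850, 6467 and 6736. In 1 fit of all 12 libraries the call of Adamts7 on overexpression was lost (adjusted p = 0.0624, edgeR).

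Signs turned in 16 values of 7 results, none of them called, and the cause was not tested. On overexpression, Mmp14 was -0.000915 on the log2 scale with a filter of 1 CPM in 3 libraries and -0.0155 to 0.0349 with single libraries left out, with -0.0139 without GFP replicate 2 and -0.000683 without Dnmt3a replicate 2. On knock-down, Adamts12 was -0.000824 in 1 fit of all 12 libraries and -0.0292 to 0.0328 with single libraries left out (-0.0167 without shDnmt3a replicate 3). Adamts14 was -0.0731 to 0.206 (-0.0695 without shScr replicate 1), and Timp3 -0.308 to 0.261 (-0.130 without shDnmt3a replicate 2). In shScr against GFP, Adam23 was -0.0187 to 0.0159 (0.00606 and 0.00437 without shScr replicate 1 or 2), Adamts7 -0.0101 to 0.0652 and Adam6a -1.75 to 0.0844. Mmp8, Mmp9, Adam32, Adam6a and Timp3, with at most 44 counts in a library, are limited by depth.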
